A study of Rattus norvegicus with 9 samples.

Results

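Fatty acids that enter a beta cell and are not burnt are esterified to glycerol and stored as triglyceride in lipid droplets. The genes described here encode the droplet coat proteins Plin2 and Plin3, the enzymes of triglyceride synthesis Gpam, Lpin1, Lpin2, Dgat1 and Dgat2, and the lipases Pnpla2, Lipe and Mgll, 10 genes picked by name out of the 20645 in the deposited table. All 10 matched 1 row each, and 9 of them were among the 12958 genes with a mean FPKM (fragments scaled to transcript length and to the fragments mapped in the library) of at least 1 over all libraries, which is the set that was tested. Mgll fell short of that level and is given from a fit without the filter.

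RNA was sequenced from INS-1E cells, a clonal rat insulinoma line that secretes insulin, in 3 groups of 3 replicates, each treated for 24 h. The BSA group was given fatty-acid-free BSA, the carrier protein, the PA group palmitic acid, and the PA + C3G group palmitic acid mixed with cyanidin-3-O-glucoside, an anthocyanin. The doses, 0.5 mM PA and 50 µM C3G, are those of the study's methods, since the labels give none. All groups come from the same tumour-derived line, and no group received C3G without PA. The study's methods speak of biological triplicates for its experiments in general, but neither they nor the labels say that these libraries came from separate cultures, and p-values measure only the spread between these samples.

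Triglyceride is built in steps. Gpam places the first fatty acid on glycerol 3-phosphate, lipins remove phosphate from phosphatidic acid to give diacylglycerol, and Dgat1 and Dgat2 add the last fatty acid. The droplet is coated by perilipins, which govern the access of lipases, and it is taken apart in turn by Pnpla2 (ATGL), Lipe (hormone-sensitive lipase) and Mgll (monoglyceride lipase). In beta cells palmitate is both a fuel and a stress, and the esterification to triglyceride is one of the routes that clear it from the cytosol.

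Promoters are shown for the 4 tested members that were higher in the PA group than in the BSA group. They run from 250 bases before to 50 after a RefSeq start site on the rat build GRCr8, 5′ to 3′ on the strand of the gene, and capitals mark 3 motifs on either strand. These are the GC box, written GGGCGG, to which factors of the SP1 family bind, the E box, written CACGTG, and the CCAAT box, known for NF-Y. The windows are chr5:106228969-106229268 (minus strand) for Plin2, which is the first of its 2 RefSeq windows, chr9:1210163-1210462 (minus strand) for Plin3, chr6:45108893-45109192 (minus strand) for Lpin1 and chr1:205982029-205982328 (plus strand) for Pnpla2.
Plin2: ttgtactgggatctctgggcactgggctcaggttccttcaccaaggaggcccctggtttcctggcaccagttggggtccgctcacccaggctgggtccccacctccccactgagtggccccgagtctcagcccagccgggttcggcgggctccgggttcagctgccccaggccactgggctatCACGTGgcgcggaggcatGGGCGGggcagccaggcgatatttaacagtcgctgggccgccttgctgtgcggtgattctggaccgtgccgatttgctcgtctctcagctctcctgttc
Plin3: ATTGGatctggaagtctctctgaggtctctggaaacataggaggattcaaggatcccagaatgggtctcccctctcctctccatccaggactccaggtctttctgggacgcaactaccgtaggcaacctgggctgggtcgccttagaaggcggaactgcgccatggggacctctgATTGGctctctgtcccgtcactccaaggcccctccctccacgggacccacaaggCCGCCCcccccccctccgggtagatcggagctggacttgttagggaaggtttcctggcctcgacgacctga
Lpin1: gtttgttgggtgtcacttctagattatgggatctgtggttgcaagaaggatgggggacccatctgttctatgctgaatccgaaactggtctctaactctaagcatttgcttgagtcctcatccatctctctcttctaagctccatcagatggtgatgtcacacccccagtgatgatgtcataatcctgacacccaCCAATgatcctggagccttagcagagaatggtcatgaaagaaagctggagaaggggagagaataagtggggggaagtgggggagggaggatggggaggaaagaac
Pnpla2: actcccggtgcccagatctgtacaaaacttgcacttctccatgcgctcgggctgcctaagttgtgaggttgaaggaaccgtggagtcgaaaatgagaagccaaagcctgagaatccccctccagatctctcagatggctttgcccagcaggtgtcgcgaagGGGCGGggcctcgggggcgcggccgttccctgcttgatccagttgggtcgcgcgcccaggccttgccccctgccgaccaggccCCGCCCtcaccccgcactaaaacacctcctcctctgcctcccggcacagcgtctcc

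An E box was found in the Plin2 window, 67 bases before the start site, and a GC box 49 bases before it. Plin3 held a GC box at 21 bases and CCAAT boxes at 75 and 250 bases before the start. In Lpin1 a CCAAT box lay 55 bases before the start, and in Pnpla2 GC boxes lay at 89 and 6 bases. These letters are common, since a GC box occurs in 33.1%, a CCAAT box in 37.5% and an E box in 6.42% of all 33469 RefSeq windows of the same 300 bases. No motif searched was shared by all 4 windows. The nuclear receptor site AGGTCA, and the PPAR response element that repeats it after 1 base, matched on neither strand of the 8 windows found for 7 of the 10 members, against 16.2% and 0.0538% of all windows. The CHOP and ATF4 element TGATGNAA occurred in 1 of these 8 windows, that of Gpam, and in 3.98% of all windows. No overlap between the marked motifs occurred in the windows shown. A match is a string of letters and not a measured site.

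The depth ranged from 45559993 estimated counts, in PA + C3G replicate 3, to 66730721. The 8 beta cell markers summed to between 48910 and 49630 FPKM in the BSA group, 22090 to 22600 in the PA group and 46480 to 52090 in the PA + C3G group. Of these 8, 7 were lower in the PA group than in the BSA group and all 8 were higher in the PA + C3G group than in the PA group. In PA + C3G against BSA, 3 were higher (Ins1, Nkx6-1 and Chga), 2 were lower and 3 did not pass, so similar sums hide differences. The 2 lower were Ins2, at a mean of 7008 FPKM against 13780 with BSA, and Slc2a2, at 172 against 510. Fewer cells of a type and less RNA per cell cannot be told apart in bulk RNA. Of the 5 adipocyte markers, 2 were matched, with sums of 2.44 to 3.45 FPKM in the BSA group, 2.04 to 2.12 in the PA group and 3.08 to 3.39 in the PA + C3G group that were nearly all Cidec, and Plin1, the perilipin of fat cells, was between 0 and 0.0543 FPKM in all 9 libraries. The only other islet marker tested, Gcg, ranged from 8.28 to 31.2 FPKM in the BSA group, 1.35 to 6.02 in the PA group and 4.17 to 22.5 in the PA + C3G group. The matched markers of acinar cells, of fibroblasts and of endothelial and immune cells each summed, list by list, to at most 0.226 FPKM in any library. The endothelial markers Pecam1 and Cdh5 and the acinar marker Prss1 were not matched, so the last list held only the immune marker Ptprc. The part of these shifts in the results below was not tested.

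In the BSA group the order of the 10 genes by FPKM, which is comparable between genes because it is scaled to length, was Dgat1, Lpin1, Pnpla2, Gpam, Dgat2, Plin2 and Lpin2, followed by Lipe, Plin3 and Mgll. Dgat1 stood first at 16.8 ± 1.16 FPKM (SD, n = 3) and Lpin1 next at 15.2 ± 0.649, and their BSA libraries were close but apart, from 16.0 to 18.1 and from 14.6 to 15.9, while Pnpla2, up to 15.7, overlapped Lpin1. Gpam at 6.60 ± 0.453 and Dgat2 at 5.84 ± 0.747 overlapped, as did Plin3 at 1.85 ± 0.594 and Lipe at 1.92 ± 0.180. With PA the first place passed to Lpin1 in all 3 libraries, and it kept that place in all 3 libraries of the PA + C3G group. Mgll was last in all 9 libraries. Most of these genes are modestly expressed in the line: in the BSA libraries the median percentile among tested genes was 57.1 for Dgat1 and 54.7 for Lpin1, but 17.8 for Plin2, 9.24 for Plin3 and 8.46 for Lipe.

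**Figure D1:**
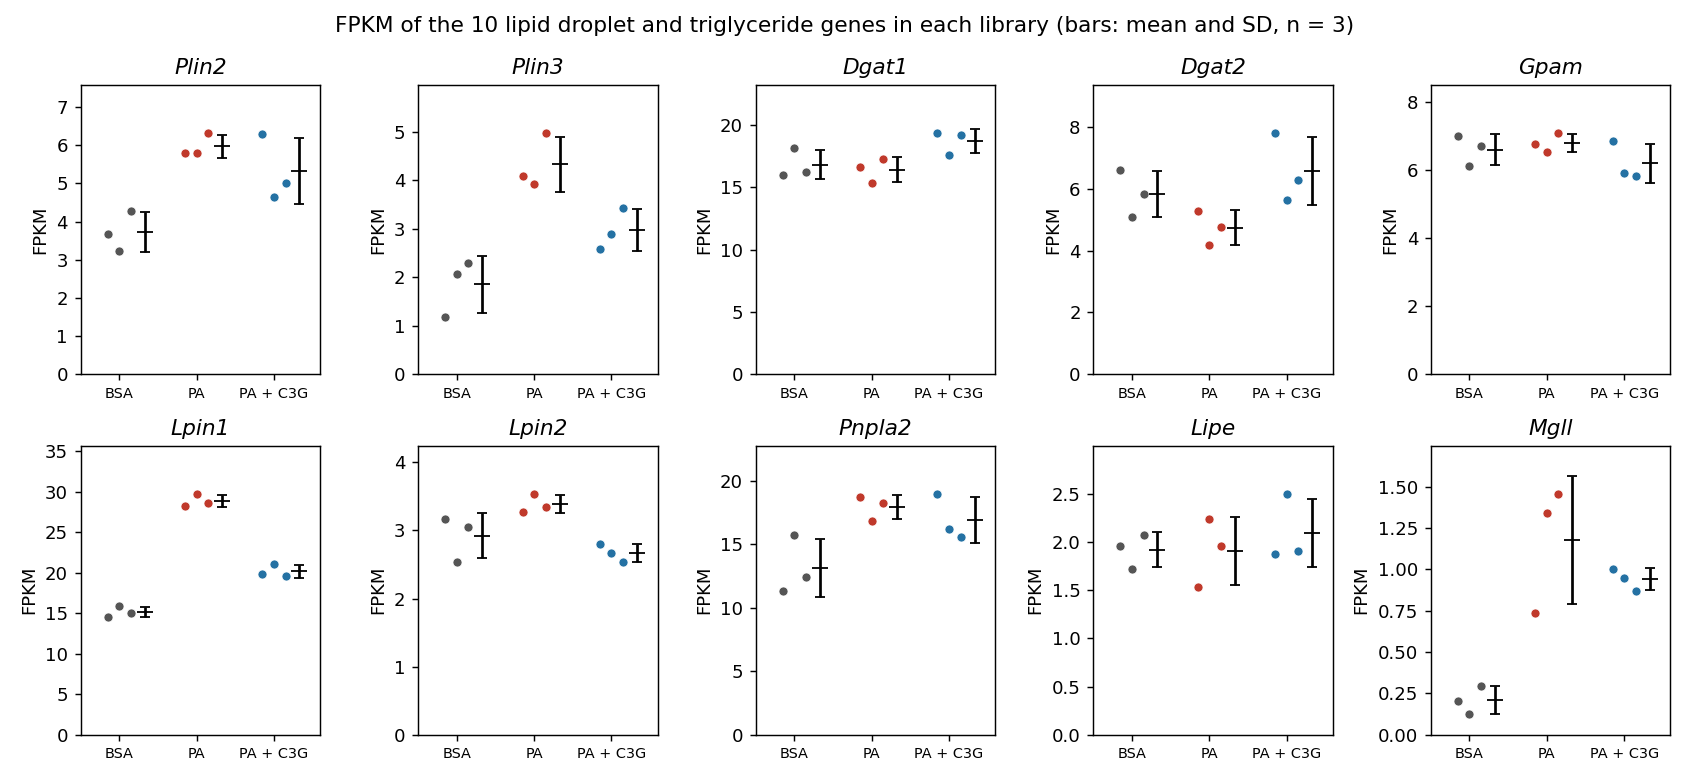
FPKM (vertical axes, each from 0) of the 10 genes in the 9 libraries, 1 point per library, with the mean and SD of each group of 3 beside the points. The PA libraries of Lpin1 (28.3 to 29.8) stand clear of both other groups, whereas Gpam and Lipe overlap across all groups.

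To see how the droplet and triglyceride genes answered to palmitate, the PA group was compared with the BSA group by edgeR's quasi-likelihood test with Benjamini-Hochberg adjustment over all tested genes. Plin2, Plin3, Lpin1 and Pnpla2 rose, no tested member passed as lower, and Dgat1, Dgat2, Gpam, Lpin2 and Lipe did not pass the test. These were 4 of 9 members (44.4%), where 51.0% of all tested genes passed an adjusted p-value under 0.05, 25.8% as higher and 25.2% as lower, so the share called was near the background. The median log2 fold change was 0.24 over the 9 members and 0.00295 over all tested genes. Of the 9 tested members, only Plin3 also had a fold change above 2 with an unadjusted p-value under 0.05, the criterion for DEGs in the study's methods, which 7.56% of tested genes met.

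Lpin1, a lipin with phosphatidate phosphatase activity that also acts as a transcriptional coregulator, gave the clearest rise. The deposited table, whose build is not given in the sources used here, places it (ENSRNOG00000004377) on chromosome 6 from 41799749 to 41870046, minus strand. Its FPKM was 14.6, 15.9 and 15.1 in the BSA libraries, 28.3, 29.8 and 28.7 in the PA libraries and 19.8, 21.2 and 19.6 in the PA + C3G libraries. The 3 groups did not overlap, with BSA lowest, PA highest and PA + C3G between them. The PA group was 1.94-fold above the BSA group, a log2 fold change (log2FC) of 0.96 (SE, standard error, 0.05, adjusted p = 3.38e-07 from edgeR). With a library left out in turn, it stayed between 0.92 and 0.98.

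Plin2 (ENSRNOG00000007060), on chromosome 5 from 104984414 to 105010857 in the same table, encodes the main droplet coat protein of cells outside fat tissue. It was at 3.67, 3.22 and 4.27 FPKM with BSA, 5.78, 5.80 and 6.32 with PA and 6.30, 4.65 and 5.01 with PA + C3G. All PA libraries lay above all BSA libraries, and the PA + C3G libraries also lay above all BSA libraries, with replicate 1 inside the PA range. The rise with PA was 1.63-fold, a log2FC of 0.71 (SE 0.15, adjusted p = 0.00279 from edgeR). Among the promoter windows shown above, only that of Plin2 held an E box. Of the 8 windows found for members 2 held one, the other being that of Mgll, 74 bases before the start.

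For Plin3 (ENSRNOG00000048834, chromosome 9 from 10773901 to 10781109), a perilipin that is soluble in the cytosol and moves to new droplets, FPKM was 1.18, 2.07 and 2.30 with BSA, 4.09, 3.93 and 4.98 with PA and 2.59, 2.90 and 3.44 with PA + C3G. No group overlapped another, in the same order as for Lpin1. The rise with PA was the largest of the tested members, 2.37-fold or 1.25 on the log2 scale (SE 0.25, adjusted p = 0.00206 from edgeR). BSA replicate 1 was the lowest library of the 9, with 107 estimated counts, and without it the log2FC was 0.997.

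Pnpla2 (ENSRNOG00000018736, chromosome 1 from 214434626 to 214439720) encodes ATGL, the lipase that takes the first fatty acid off a triglyceride. Its libraries read 11.3, 15.7 and 12.4 FPKM with BSA, 18.7, 16.8 and 18.2 with PA and 19.0, 16.2 and 15.6 with PA + C3G. The PA libraries lay above the BSA libraries, the nearest of which was BSA replicate 2. The PA group was 1.39-fold higher, with a log2FC of 0.47 (SE 0.12, adjusted p = 0.00866 from edgeR). With a library left out in turn, the log2FC lay between 0.37, without BSA replicate 1, and 0.61, without BSA replicate 2.

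Mgll (ENSRNOG00000014508, chromosome 4 from 120671489 to 120771088), which splits monoglycerides including the endocannabinoid 2-arachidonoylglycerol, was the least abundant gene, with 10 to 27 estimated counts per library with BSA and 69 to 126 with PA. In FPKM this was 0.203, 0.129 and 0.297 with BSA, 0.738, 1.34 and 1.46 with PA and 1.0, 0.951 and 0.871 with PA + C3G. The BSA libraries lay below all 6 libraries with PA. Without a filter on low values, when 32.3% of 20645 genes passed, Mgll rose with PA by 2.49 on the log2 scale (SE 0.38, adjusted p = 0.000397 from edgeR). With a library left out in turn, in fits added after seeing the data, this value lay between 2.24 and 2.83. Among small estimated counts, a value of 4 was 2.44 times as frequent as 3 or 5 on average, and counts divided by 4 gave 2.45.

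Among the members that did not pass, Dgat1, an acyltransferase of the endoplasmic reticulum, had a log2FC of -0.01 (SE 0.07) and Gpam, the mitochondrial acyltransferase of the first step, 0.07 (SE 0.09). Gpat4, another glycerol 3-phosphate acyltransferase, is not a member and is named after its values were seen. It averaged 49.6 FPKM with BSA, against 6.60 for Gpam, and fell with PA by 0.18 (SE 0.05, adjusted p = 0.00764 from edgeR). Dgat2, the acyltransferase that also works at the droplet surface, read 6.59, 5.10 and 5.82 FPKM with BSA and 5.29, 4.17 and 4.76 with PA, so that the groups overlapped (log2FC -0.28, SE 0.14, adjusted p = 0.139 from edgeR). Lpin2 was at 3.16, 2.54 and 3.06 FPKM with BSA and 3.27, 3.54 and 3.35 with PA. These groups did not overlap, as was so for 5 of the 9 tested members and 59.9% of tested genes, but the adjusted p-value from edgeR was 0.0625 for a log2FC of 0.24 (SE 0.10). Lipe, which prefers diacylglycerol, was at 1.92 ± 0.180 FPKM (SD, n = 3) with BSA and 1.91 ± 0.352 with PA.

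**Figure D2:**
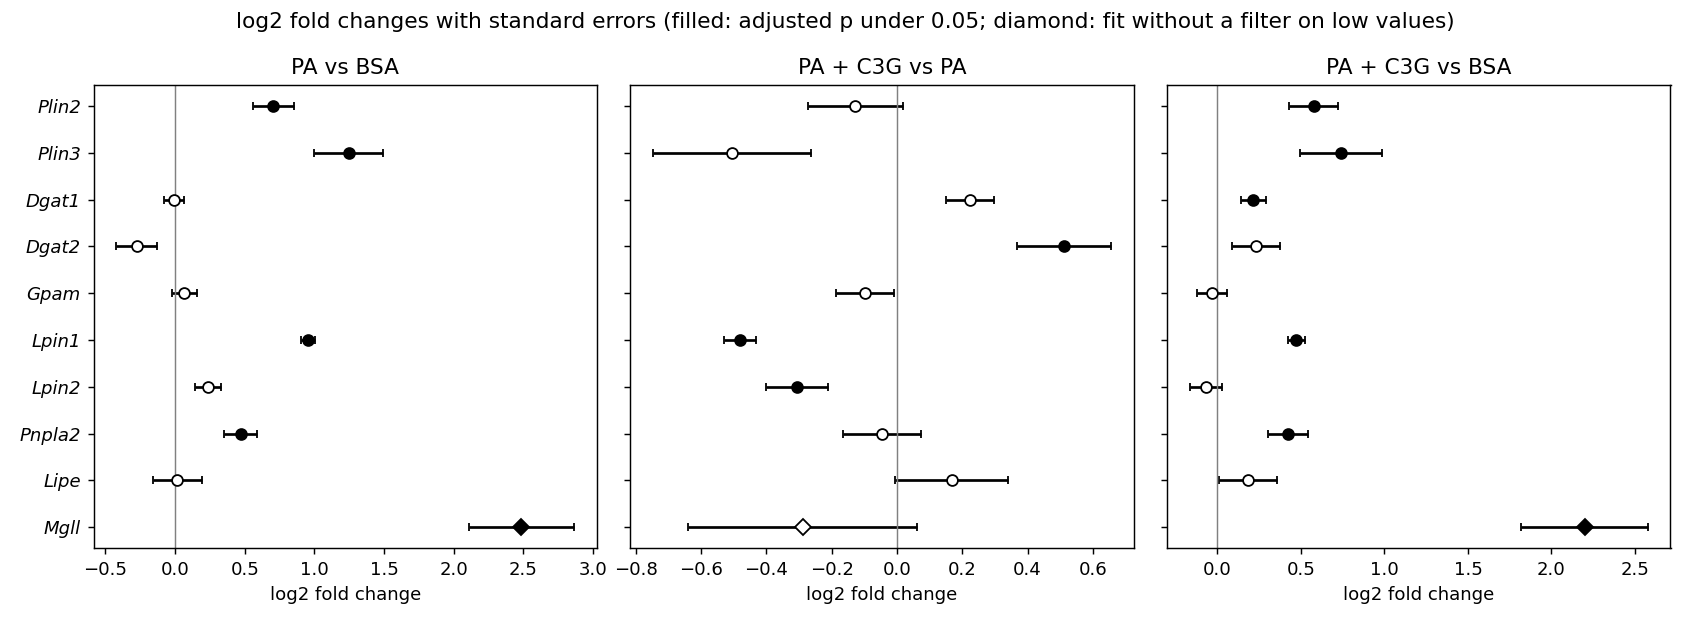
log2FCs (horizontal axes, which differ in range between panels) of the 10 genes with standard errors in the 3 comparisons; filled points passed an adjusted p-value under 0.05 and the diamond for Mgll is from the fit without a filter. Plin2, Plin3, Lpin1, Pnpla2 and Mgll are filled and positive in the panels of PA and of PA + C3G against BSA.

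The comparison of PA + C3G with PA asks what C3G changed in cells exposed to palmitate. Lpin1 and Lpin2 were lower and Dgat2 was higher with C3G, and the other 6 tested members did not pass. This was 3 of 9 members (33.3%), where 21.2% of all tested genes passed, 11.1% as higher and 10.2% as lower (1436 and 1316 genes). The balance depended on the scaling, with 775 higher and 2548 lower when the FPKM sums were made equal and 1065 and 1636 with limma on log2(FPKM + 1). The median log2FC was -0.10 over the 9 members and -0.0007 over all tested genes. None of the 9 had a fold change above 2 with an unadjusted p-value under 0.05, as against 1.13% of tested genes.

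Lpin1 fell by 0.48 on the log2 scale, 1.40-fold (SE 0.05, adjusted p = 0.000314 from edgeR). All 3 PA + C3G libraries lay below all PA libraries, by at least the gap between 21.2 and 28.3 FPKM. Over the alternatives its log2FC ran from -0.57 to -0.48, and it was the only member called in each of them. Lpin2 was at 2.81, 2.67 and 2.53 FPKM in the PA + C3G libraries, below the PA range of 3.27 to 3.54 and within the BSA range at 2 libraries. Its log2FC was -0.31 (SE 0.10, adjusted p = 0.0486 from edgeR). This call rests on a p-value at the threshold, since the adjusted p-value reached 0.0800 without a filter and 0.140 without PA replicate 2, and it passed in 5 of 10 alternatives and in 1 of 9 fits that left out a library.

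Dgat2 was at 7.80, 5.65 and 6.29 FPKM with PA + C3G, above the PA range of 4.17 to 5.29 and overlapping the BSA range of 5.10 to 6.59. It rose over PA by 0.51 on the log2 scale (SE 0.14, adjusted p = 0.0323 from edgeR). When the FPKM sums of the libraries were made equal, the adjusted p-value was 0.0595, and without PA + C3G replicate 1, the highest library, it was 0.107. The call passed in 8 of 11 alternatives and in only 4 of 9 fits that left out a library. Dgat1 read 19.4, 17.6 and 19.2 FPKM with PA + C3G against 16.6, 15.4 and 17.3 with PA. Its groups did not overlap, as was so for 5 of the 9 tested members and 39.5% of tested genes, and the log2FC was 0.22 (SE 0.07, adjusted p = 0.0569 from edgeR).

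The coat genes and lipases raised by PA did not pass in this comparison. The log2FC was -0.13 for Plin2 (SE 0.15), -0.50 for Plin3 (SE 0.24, adjusted p = 0.176 from edgeR) and -0.05 for Pnpla2 (SE 0.12). For Plin3 the PA + C3G libraries nevertheless lay below every PA library. Without a filter, when 11.8% of genes passed, Mgll gave -0.29 (SE 0.35). Gpam and Lipe had log2FCs of -0.10 (SE 0.09) and 0.17 (SE 0.17).

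PA + C3G was also compared with BSA, with the same BSA libraries that served for PA and the same PA + C3G libraries as above, so these values are not independent of the others. Plin2, Plin3, Lpin1, Pnpla2 and Dgat1 were higher and none was lower, which is 5 of 9 members (55.6%), where 36.9% of all tested genes passed, 19.0% as higher and 17.9% as lower (2462 and 2321 genes, or 1876 and 3066 when the FPKM sums were made equal and 1850 and 3091 with limma on log2(FPKM + 1)). The FPKM of both groups did not overlap for 3 of the 9 tested members, against 50.3% of tested genes, and none of these 9 had a fold change above 2 with an unadjusted p-value under 0.05, against 4.63%. Lpin1 remained 1.39-fold above BSA, with a log2FC of 0.47 (SE 0.05, adjusted p = 5.98e-05 from edgeR). Plin2 was higher by 0.58 (SE 0.15, adjusted p = 0.0120 from edgeR) and Pnpla2 by 0.43 (SE 0.12, adjusted p = 0.0202), although the PA + C3G and BSA libraries of Pnpla2 overlapped. Plin3, with 0.74 (SE 0.24, adjusted p = 0.0386), and Dgat1, with 0.22 (SE 0.07, adjusted p = 0.0434), were near the threshold of the edgeR test. Without BSA replicate 1 neither passed, at adjusted p-values of 0.0778 and 0.154, and Pnpla2 did not pass either, at 0.0735. Mgll, without a filter, was higher by 2.20 (SE 0.38, adjusted p = 0.00152 from edgeR, where 21.8% of genes passed).

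Ratios between related members within a library do not depend on the scaling between libraries. The Lpin2/Lpin1 ratio of FPKM was 0.193 ± 0.0296 (SD, n = 3) with BSA, 0.117 ± 0.00165 with PA and 0.132 ± 0.00814 with PA + C3G, and no group overlapped another. For Dgat2/Dgat1 it was 0.412, 0.281 and 0.359 with BSA, 0.319, 0.272 and 0.275 with PA and 0.403, 0.322 and 0.328 with PA + C3G. The PA + C3G libraries lay above the PA libraries here by 0.322 against 0.319, which is less than the spread within either group. Plin2/Plin3 was 2.17 ± 0.828 with BSA, 1.39 ± 0.107 with PA and 1.83 ± 0.527 with PA + C3G. The BSA value was widened by replicate 1, at 3.11. Lipe/Pnpla2 overlapped among all groups, from 0.0821 to 0.173.

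**Figure D3:**
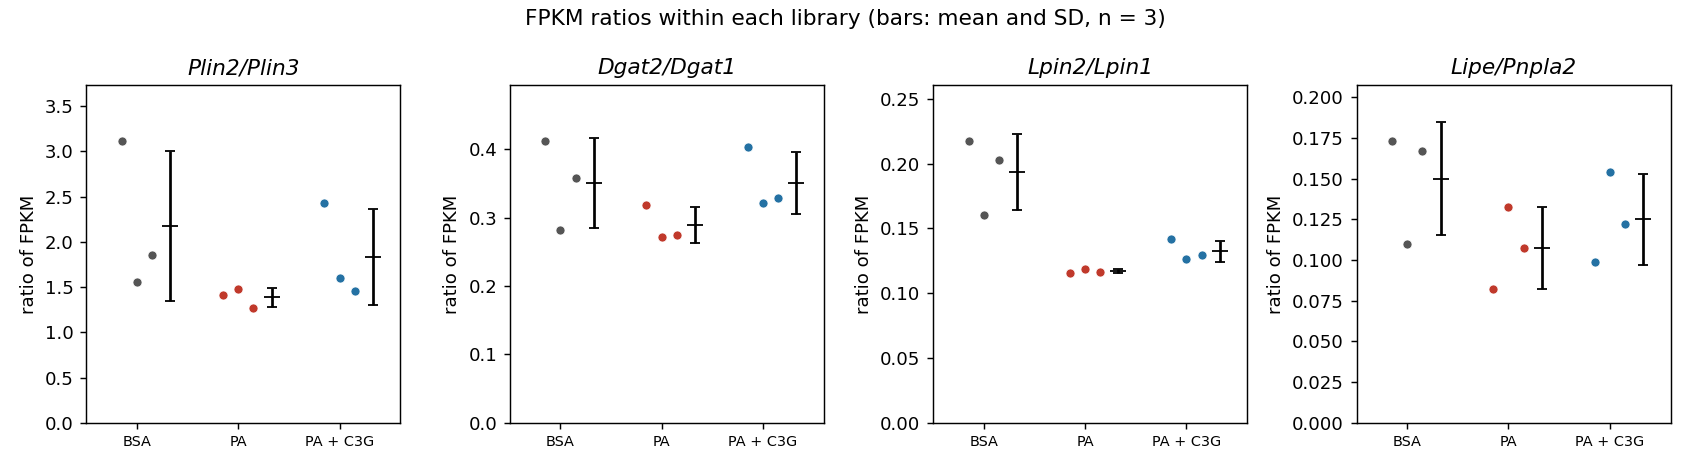
Ratios of FPKM (vertical axes, each from 0) between related members within each library, 1 point per library, with group mean and SD (n = 3). The PA points of Lpin2/Lpin1 lie between 0.116 and 0.119, below those of both other groups.

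The third lipin, Lpin3, was followed because it belongs to the same step. Its FPKM was 19.5, 19.9 and 19.7 with BSA, 28.5, 27.6 and 28.6 with PA and 21.5, 23.8 and 22.2 with PA + C3G, which is the order of Lpin1 with no overlap. It rose with PA by 0.54 on the log2 scale (SE 0.04, adjusted p = 6.05e-06 from edgeR) and with C3G it fell by 0.29 (SE 0.04, adjusted p = 0.00202). Summed over Lpin1, Lpin2 and Lpin3, FPKM was 37.8 ± 0.525 (SD, n = 3) with BSA, 60.5 ± 0.410 with PA and 45.3 ± 1.97 with PA + C3G. Lpin1 made up 40.1 ± 1.18% of the sum with BSA, 47.8 ± 0.961% with PA and 44.5 ± 0.366% with PA + C3G.

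Other genes of the pathway were counted from lists by function, and no list was tested as a set. For all lists below, the shares over all tested genes were 25.8% higher and 25.2% lower with PA. With C3G against PA they were 11.1% and 10.2%. Of 11 tested genes of glycerolipid synthesis, 2 were higher and 5 lower with PA than with BSA, and 1 was higher and 1 lower with PA + C3G than with PA, with median log2FC of -0.02 and 0.05. Gpd1, which supplies glycerol 3-phosphate, was the one that was higher with C3G. It read 46.1, 42.3 and 43.2 FPKM with BSA, 36.7, 29.7 and 31.7 with PA and 61.2, 54.9 and 58.5 with PA + C3G. PA lowered it by a log2FC of -0.40 (SE 0.08, adjusted p = 0.00161 from edgeR), and with C3G it rose by 0.87 over PA (SE 0.08, adjusted p = 0.000170), to above the BSA libraries. The lysophosphatidate acyltransferases Agpat3 and Agpat5 fell with PA by 0.26 and 0.40 on the log2 scale and did not pass with C3G against PA. In contrast Agpat4, named after its values were seen, rose with PA by 0.34 (SE 0.07, adjusted p = 0.00369 from edgeR). Agpat1 and Agpat2 did not pass in either comparison.

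Among 9 tested genes of droplet coat and formation, 3 were higher and 2 lower with PA, and 2 were higher and 3 lower with C3G against PA, with median log2FC of 0.18 and 0.01. Hilpda, a small droplet protein that inhibits ATGL, read 5.94, 5.07 and 6.11 FPKM with BSA, 15.7, 13.9 and 15.7 with PA and 9.39, 10.4 and 9.47 with PA + C3G. Again the groups were apart, with PA + C3G in the middle. Its log2FC was 1.42 with PA (SE 0.15, adjusted p = 4.39e-05 from edgeR) and -0.59 with C3G against PA (SE 0.15, adjusted p = 0.0220). Aup1, a droplet protein that also serves the degradation of ER proteins, rose by 0.49 with PA. Fitm2, which helps droplets form at the ER, fell by 0.31 with PA and rose by 0.28 with C3G, and Vps13c, a lipid transfer protein, rose by 0.22 and fell by 0.20. Cidec, which fuses droplets and is also one of the adipocyte markers, fell with PA by 0.50 and rose with C3G by 0.68, from low levels of 2.44 to 3.45 FPKM with BSA. The other perilipins were nearly silent, Plin1 and Plin4 at a mean of at most 0.0241 FPKM in any group and Plin5 between 0 and 0.341 FPKM in the 9 libraries.

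Of 9 tested genes of lipolysis and its control, 4 were higher and 1 lower with PA, and 2 were higher and 1 lower with C3G against PA, with median log2FC of 0.10 and 0.06. G0s2, an inhibitor of ATGL, was at 71.9, 64.5 and 74.4 FPKM with BSA, 120, 104 and 125 with PA and 167, 156 and 157 with PA + C3G. It rose with PA by 0.75 (SE 0.07, adjusted p = 2.08e-05 from edgeR) and by a further 0.49 with C3G (SE 0.07, adjusted p = 0.00180), so that the PA + C3G libraries were highest, unlike those of Hilpda. Abhd5, the coactivator of ATGL, chosen for its role after its values were seen, did not pass in either comparison, with log2FCs of 0.02 and 0.11 (SE 0.11 each). The monoglyceride and lysophospholipid hydrolases Abhd6 and Abhd12 rose with PA by 0.67 and 0.27, and Ddhd2, a triglyceride lipase known from neurons, rose by 0.18 and fell with C3G by 0.28. The gene of this list that was lower with PA was Lpl, lipoprotein lipase, which is named, like Cidec, after its values were seen. It read 2.61, 1.42 and 2.67 FPKM with BSA, 1.17, 1.27 and 1.06 with PA and 2.48, 1.73 and 2.02 with PA + C3G, and it fell with PA by 0.91 (SE 0.24, adjusted p = 0.0100 from edgeR) and rose with C3G by 0.87 (SE 0.24, adjusted p = 0.0297).

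**Figure D4:**
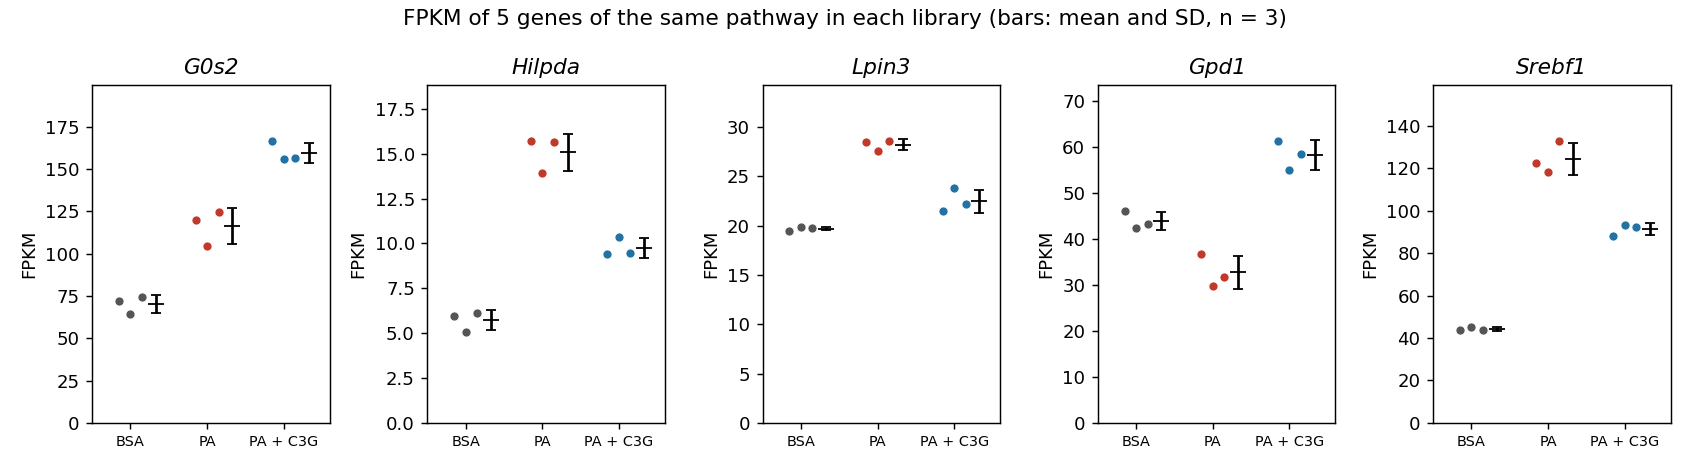
FPKM (vertical axes, each from 0) of G0s2, Hilpda, Lpin3, Gpd1 and Srebf1 in each library, with group mean and SD (n = 3). PA + C3G lies between BSA and PA for Hilpda, Lpin3 and Srebf1, and above both for G0s2 and Gpd1.

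Diacylglycerol and phosphatidic acid are also substrates for phospholipids. In the list for both routes 6 of 13 tested genes were higher and 2 lower with PA, and 1 was lower with C3G against PA, with medians of 0.14 and -0.05. Cds1, which draws phosphatidic acid toward phosphatidylinositol, rose with PA by 0.88 on the log2 scale, Pcyt2, for phosphatidylethanolamine, by 0.71, Chpt1 by 0.43 and Pcyt1a, for phosphatidylcholine, by 0.33, and Pcyt1a fell by 0.18 with C3G. The 2 genes lower with PA, named after their values were seen, were Pcyt1b, a paralog of Pcyt1a, by 0.64, and Selenoi, by 0.12. Soat1, which esterifies cholesterol for storage in droplets, rose with PA by 0.16. Of 5 tested regulators that respond to lipids, 3 were higher and 1 lower with PA, and 2 were higher and 3 lower with C3G, with medians of 0.40 and -0.17. Srebf1, the SREBP1 gene, was at 43.7, 45.2 and 43.6 FPKM with BSA, 123, 118 and 133 with PA and 88.1, 93.2 and 92.5 with PA + C3G. It rose with PA by 1.52 and fell with C3G by 0.41 (adjusted p = 0.000401 from edgeR). Ppargc1a, a coactivator of lipin and oxidation genes, rose with PA by 2.06 and fell with C3G by 0.94, from low levels of 1.07, 4.40 and 2.23 FPKM in the BSA, PA and PA + C3G groups. Nr1h2 (LXR beta) rose by 0.40 and fell by 0.17, and Rxra, the partner of PPAR and LXR, fell by 0.44 and rose by 0.41. Pparg averaged at most 0.122 FPKM in any group, and Ppara, Pparg and Nr1h3 lay under the FPKM minimum. Ppara, named after its values were seen, was at 0.530 to 0.701 FPKM with BSA, 0.962 to 1.41 with PA and 0.575 to 0.998 with PA + C3G. It was not tested.

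**Figure D5:**
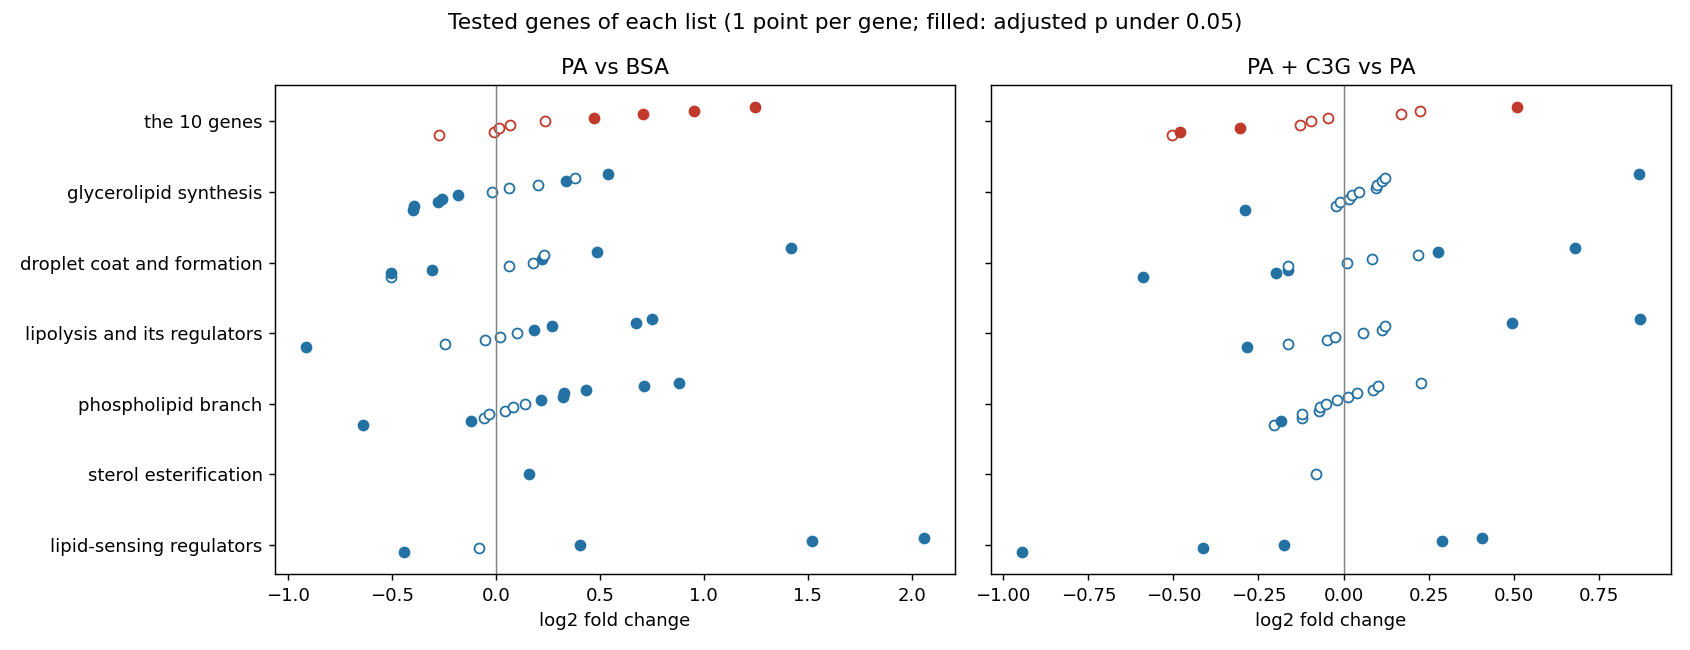
log2FCs (horizontal axes) of every tested gene in each list, PA against BSA on the left and PA + C3G against PA on the right, 1 point per gene, filled where the adjusted p-value was under 0.05. The 10 genes (top line, 9 tested) have 4 filled points to the right with PA, and 2 filled to the left and 1 to the right with C3G.

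By the KEGG annotation of the table, 7 of the 10 members belong to glycerolipid metabolism, a set of 54 genes of which 41 were tested. With PA 8 of these 41 were higher and 14 lower, with a median log2FC of 0.001, and with C3G against PA 6 were higher and 5 lower, with a median of 0.05. Of all tested genes, 51.0% passed in either direction with PA and 21.2% with C3G against PA. Genes whose pair of log2FCs lay nearest to that of Plin2 were Snph (0.71 with PA, -0.12 with C3G), Tom1 (0.71, -0.14), Stat2 (0.70, -0.14), Lgalsl (0.69, -0.13) and Actn2 (0.70, -0.15), by the sum of absolute differences over these 2 values, each from 9 libraries. The likeness is one of numbers only.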

How the data were processed

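INS-1E RNA-seq libraries were analysed, 3 each for BSA, PA and PA + C3G. Per the labels and the study's methods, mRNA was captured with oligo(dT) and read from both ends, in libraries that mark the strand, but whether counting used the strand is not given in the sources used here. For each gene the authors deposited raw estimated counts, and the deposited FPKM are these scaled to length and mapped fragments. The submitters' processing notes name cutadapt 1.9, HISAT2 2.0.4, StringTie 1.3.4d, DESeq2 and edgeR, and the genome build is not given in the sources used here.

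Counts were fitted in edgeR 4.0.16 (R 4.3.3) with TMM normalization and the quasi-likelihood test over all 9 libraries, for genes whose FPKM averaged 1 or more, with Benjamini-Hochberg adjustment and a threshold of 0.05. The procedure was tested on simulated data. The members, lists and settings were chosen with earlier results of these data known. Genes named from a list are the up to 4 with the smallest p-value among those past the threshold, apart from those said to be named after their values were seen. Alternatives were DESeq2 1.42.0, limma 3.58.1 on log2(FPKM + 1) and log2(FPKM + 0.1), other scalings, filters, samples and count scales, the replicate number as a block, and each library left out. The filterByExpr filter, and the Mgll fits without a filter that divided the counts by 4 or left out each library, were chosen after seeing the data.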

Additional observations from a re-analysis of the deposited data

How the results depend on the processing

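Of 564 values of single genes under other settings, 504 kept their direction and their side of the threshold, 43 lost and 6 gained a call, and 11 changed sign, none of them past the threshold in either fit. The rises of Plin2, Plin3, Lpin1 and Pnpla2 with PA, and the fall of Lpin1 and the excess of Lpin1 and Plin2 over BSA with PA + C3G, passed in every alternative that tested them and with each library left out. Sign changes in PA versus BSA were those of Dgat1, to 0.0214 when the FPKM sums were made equal, to 0.041 without BSA replicate 2 and to 0.034 without PA replicate 2 (range without a library -0.0509 to 0.041), and those of Lipe, to -0.0047 with the replicate block, -0.0105 and -0.0189 with limma on log2(FPKM + 1) and log2(FPKM + 0.1), -0.06 without BSA replicate 2 and -0.12 without PA replicate 2 (range -0.12 to 0.148). In PA + C3G versus PA, Pnpla2 turned to 0.0105 without PA + C3G replicate 3 (range -0.14 to 0.0105), and in PA + C3G versus BSA, Gpam turned to 0.0024 without BSA replicate 1 and to 0.0071 without PA + C3G replicate 3. The number of members called in PA + C3G versus PA was 3, and 1 with either limma setting, where 2701 and 2690 of 12958 genes passed against 2752. In PA + C3G versus BSA it was 5, and 3 both with equal FPKM sums and with only the 2 groups compared in the fit, where 4942 and 4418 genes passed against 4783. With each library left out these counts lay between 1 and 4 and between 2 and 5, and it stayed at 4 for PA versus BSA. The lowest values came without BSA replicate 3, PA replicate 2, PA replicate 3, PA + C3G replicate 1 or PA + C3G replicate 3 for the first, and without BSA replicate 1 for the second, which was 3 without BSA replicate 3, PA replicate 1, PA + C3G replicate 1 or PA + C3G replicate 3. Each of these fits also had fewer samples, and the cause was not tested. In the fit with a replicate block 5, 2 and 5 members were called in PA versus BSA, PA + C3G versus PA and PA + C3G versus BSA, where 6843, 3118 and 5058 of 12958 genes passed. Without the block 6614, 2752 and 4783 genes passed. With the block Dgat2 was lower in PA versus BSA (-0.27, adjusted p = 0.0159 from edgeR), and Lpin2 did not pass in PA + C3G versus PA (adjusted p = 0.0660), while in PA + C3G versus BSA Dgat2 passed as higher (0.23, adjusted p = 0.0425) and Dgat1 did not pass (adjusted p = 0.0665). Deviations from the group means correlated by -0.0918 to 0.0796 across genes between libraries of the same number. The numbers were therefore not taken to pair the samples. A correlation over all genes does not show the order within single genes. Dgat2 and Gcg, picked after their values were seen, were highest in replicate 1 and lowest in replicate 2 in all 3 groups. With the block the SE of Dgat2 in PA versus BSA was 0.07, against 0.14 without it. Whether the numbers mark a batch was not tested. With equal FPKM sums the PA + C3G versus PA comparison had 775 higher and 2548 lower genes, against 1436 and 1316 with TMM. Without PA replicate 3, 1718 rather than 2752 genes passed in PA + C3G versus PA. Depth limits Mgll most, with at most 27 estimated counts in a BSA library.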
